A study of Arabidopsis thaliana with 48 samples.

Results

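Peroxisomal fatty acid beta-oxidation was described through 10 genes of Arabidopsis thaliana, picked by gene identifier from the 32678 genes counted: the acyl-CoA synthetases LACS6 and LACS7, the transporter PXA1, the acyl-CoA oxidases ACX1, ACX2, ACX3 and ACX4, the multifunctional proteins MFP2 and AIM1, and the thiolase KAT2. Whole-seedling RNA was sequenced from the snrk1a1/a2 mutant and from wild type. Sugar-free groups were darkness at ages of 3 d, 4 d and 5 d after germination and light at 4 d and 5 d, for each genotype. Glucose groups were 4 d light and 4 d darkness. Sugar-free means that the labels give no treatment. This gives 14 groups of 3 libraries. SnRK1 is a kinase of the energy-starvation response, and KIN10 and KIN11 are its catalytic subunits. The sample titles tag the mutant as kd, an abbreviation that they do not spell out. The labels do not otherwise say how the mutant was made, when light began or how much glucose was given. They also do not say whether replicates were separate cultures, so p-values reflect the spread among these libraries, which may be technical.

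Library totals ran from 4956025 to 26126836 counts, with a median of 13730634, and each member had at least 319 counts in every library. All 10 members passed the filter on low counts. Levels are normalised CPM, which are counts scaled to a common library total with TMM factors, and fold changes are log2 ± SE from 1 fit of all 42 libraries. The label was checked on its named genes: KIN10 was called lower in the mutant in none of the 7 conditions and higher at 4 d light (1.24 ± 0.40) and 5 d light (1.71 ± 0.40), and it stood far above the other libraries in mutant 4 d light library 1 (541 CPM) and mutant 5 d light libraries 1 and 3 (614 and 589 CPM). Both calls rest on these libraries, which were picked by their high KIN10, so a fall without them was fixed in advance. Without mutant 4 d light library 1 the 4 d light value was 0.25 (adjusted p = 0.558). Leaving out all 3 keeps only mutant library 2 at 5 d light, where the value was 0.35. KIN11 was called lower at 4 d dark and at 4 d light with glucose, where it averaged 16.1 ± 0.48 CPM in mutant seedlings and 32.3 ± 1.90 CPM in wild-type seedlings (SD, n = 3 each). The 4 d dark call of KIN11 was lost without mutant library 1 or wild-type library 1 or 3 (adjusted p = 0.0597 to 0.136) and under library totals (-0.21, adjusted p = 0.273). Mutant therefore means the libraries so labelled. In the dark with glucose, the libraries labelled mutant 2 and wild type 2 stood with the other genotype on the first principal component, at -36.4 and 20.3 against 10.3 and 12.2 for the other mutant libraries and -36.6 and -43.2 for the other wild-type libraries. Without this pair KIN11 was called lower there too (-0.73, adjusted p = 0.00795). The labels were kept, and results that rest on the pair are given with and without it. Summed green-tissue markers (4 genes) were lower in the mutant in every sugar-free condition, for example 2291 to 4153 CPM in mutant seedlings and 19463 to 21822 CPM in wild-type seedlings at 5 d light. They were also lower in light with glucose, at 7599 to 8875 CPM in mutant seedlings and 11926 to 13420.1 CPM in wild-type seedlings. Summed shoot apex markers (4 genes) were lower without overlap in the same 6 conditions, for example 17.9 to 23.4 CPM in mutant seedlings and 55.7 to 77.1 CPM in wild-type seedlings at 5 d dark, and root markers (6 genes) at 3 d, 4 d and 5 d dark, for example 108 to 118 CPM in mutant seedlings and 188 to 205 CPM in wild-type seedlings at 5 d. Summed seed and embryo markers (13 genes) reached 2037 CPM in mutant 5 d light library 3, against 31.7 and 41.0 CPM in mutant libraries 1 and 2 and 6.37 to 9.12 CPM in wild-type seedlings of that condition. Without that library the same number of members, 6, was called at 5 d light. Seed and embryo markers also stood out in wild type 4 d light library 2, at 60.5 CPM against 6.84 and 6.32 CPM. In wild type 4 d light with glucose, library 3 read 28.2 CPM against 7.05 and 7.45 CPM. Root markers read 178 CPM in mutant 4 d light library 1, against 109 and 125 CPM in libraries 2 and 3. At 5 d light they read 163 and 191 CPM in mutant libraries 1 and 3, against 89.2 CPM in library 2. The higher ones are the libraries of raised KIN10. The part of all these markers in the results was not tested, and in whole seedlings fewer cells of a type and less RNA per cell cannot be told apart.

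Fatty acids released from seed oil are taken into the peroxisome, activated to acyl-CoA and shortened in repeated rounds of oxidation, hydration, oxidation and thiolysis. The acetyl-CoA that leaves each round feeds the glyoxylate cycle and gluconeogenesis, and the pathway carries an oilseed seedling until photosynthesis begins. It also completes jasmonate synthesis and the conversion of indole-3-butyric acid to auxin.

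Among the members, levels compared per length (TPM, counts scaled by exonic length and then to a common total) put KAT2 highest, with a median over the 14 group means of 226 TPM, and PXA1 lowest, with 18.2 TPM. ACX4 varied most. Its highest group mean, 678 CPM in wild-type seedlings at 5 d light, was 7.38 times its lowest, 91.9 CPM in the mutant in the dark with glucose. The next widest ranges were those of MFP2 (4.13 times), LACS7 (3.15 times) and KAT2 (2.96 times), and AIM1 varied least (1.62 times).

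**Figure D1:**
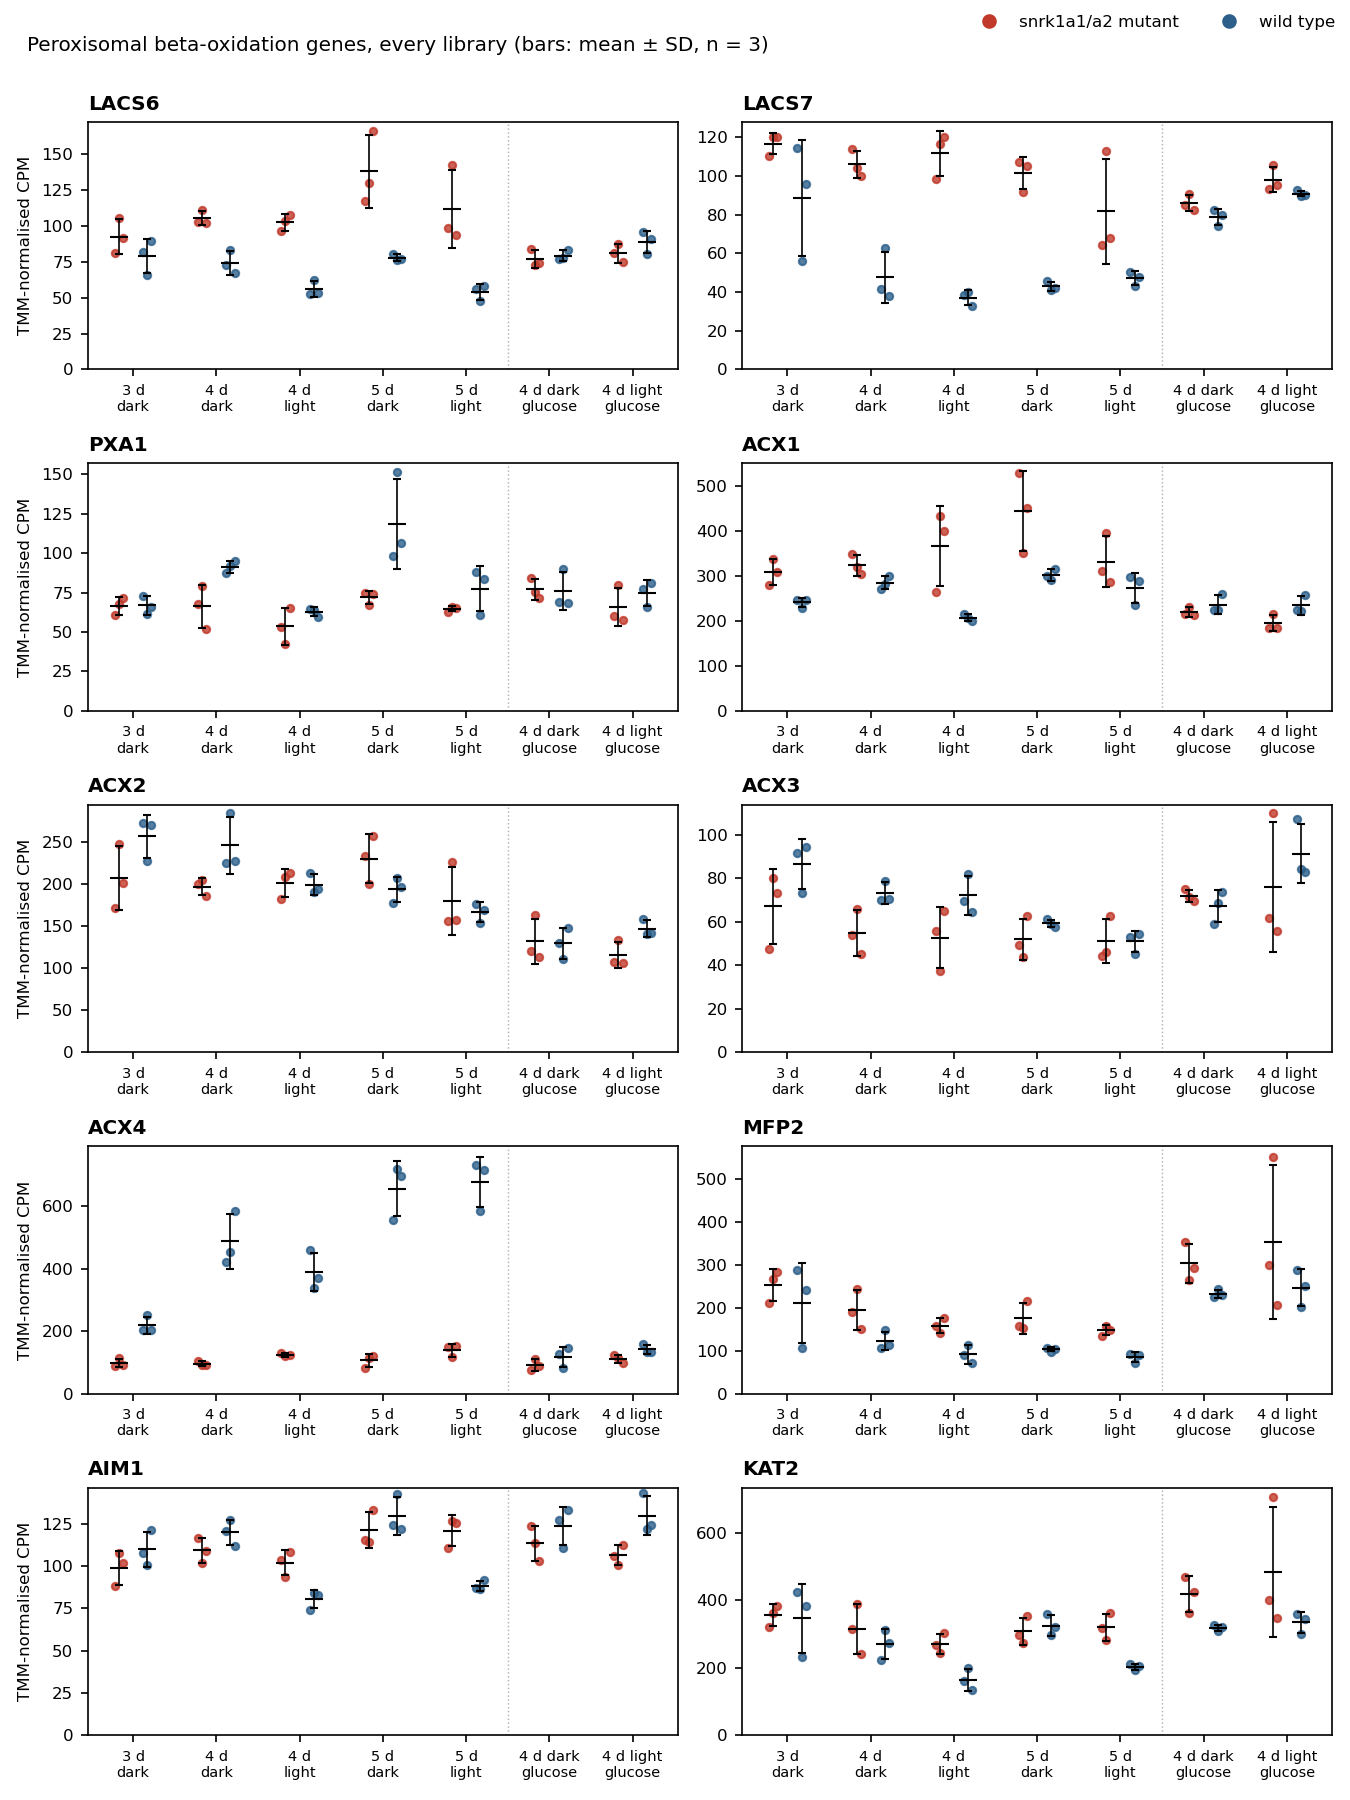
Normalised CPM (y axis, from 0) of the 10 members in every library, by condition (x axis), mutant in red and wild type in blue, with bars at the mean ± SD of 3 libraries. ACX4 climbs to 678 CPM in sugar-free wild type and stays between 91.9 and 139 CPM in every mutant group mean.

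The mutant was compared with wild type in each of the 7 conditions. At 3 d in the dark 1 of the 10 members was called (adjusted p under 0.05), against 31.6% of all 22586 genes tested. There 17.3% of all genes were called higher and 14.3% lower. At 4 d dark 5 members were called (58.0% of all genes), at 4 d light 7 (54.0%), at 5 d dark 6 (61.3%) and at 5 d light 6 (59.8%), so calls were about as common among the members as among all genes. Over these 4 conditions, in that order, 29.5%, 28.8%, 29.9% and 33.4% of all genes were called higher and 28.5%, 25.2%, 31.4% and 26.4% lower. Groups did not overlap for 2 members at 3 d dark (49.7% of all genes), 8 at 4 d dark (67.8%), 7 at 4 d light (57.7%), 6 at 5 d dark (65.0%) and 6 at 5 d light (54.8%). With glucose no member was called in the dark (0.0% of all genes) or in light (9.46%). Without scaling factors the median of all genes lay 0.13 to 0.64 above 0 on the log2 scale in the 5 sugar-free comparisons (at most 0.19 in size with TMM), and no member's direction was reversed by a call under that scaling. Its member calls were 3 higher and 1 lower at 3 d dark, 5 and 1 at 4 d dark, 6 and 1 at 4 d light, 5 and 2 at 5 d dark and 7 and 1 at 5 d light. The shares of all genes above are from TMM scaling. Shares under library totals are not given, for these counts or for those of other lists below. With TMM the members split by gene, with 0 higher and 1 lower at 3 d dark, 3 and 2 at 4 d dark, 6 and 1 at 4 d light, 4 and 2 at 5 d dark and 5 and 1 at 5 d light. ACX4 was lower in the mutant in all 5 sugar-free conditions, PXA1 in 2 of them, LACS6, LACS7 and MFP2 were higher in 4, ACX1, AIM1 and KAT2 were higher in 2, and ACX2 and ACX3 were called in none.

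**Figure D2:**
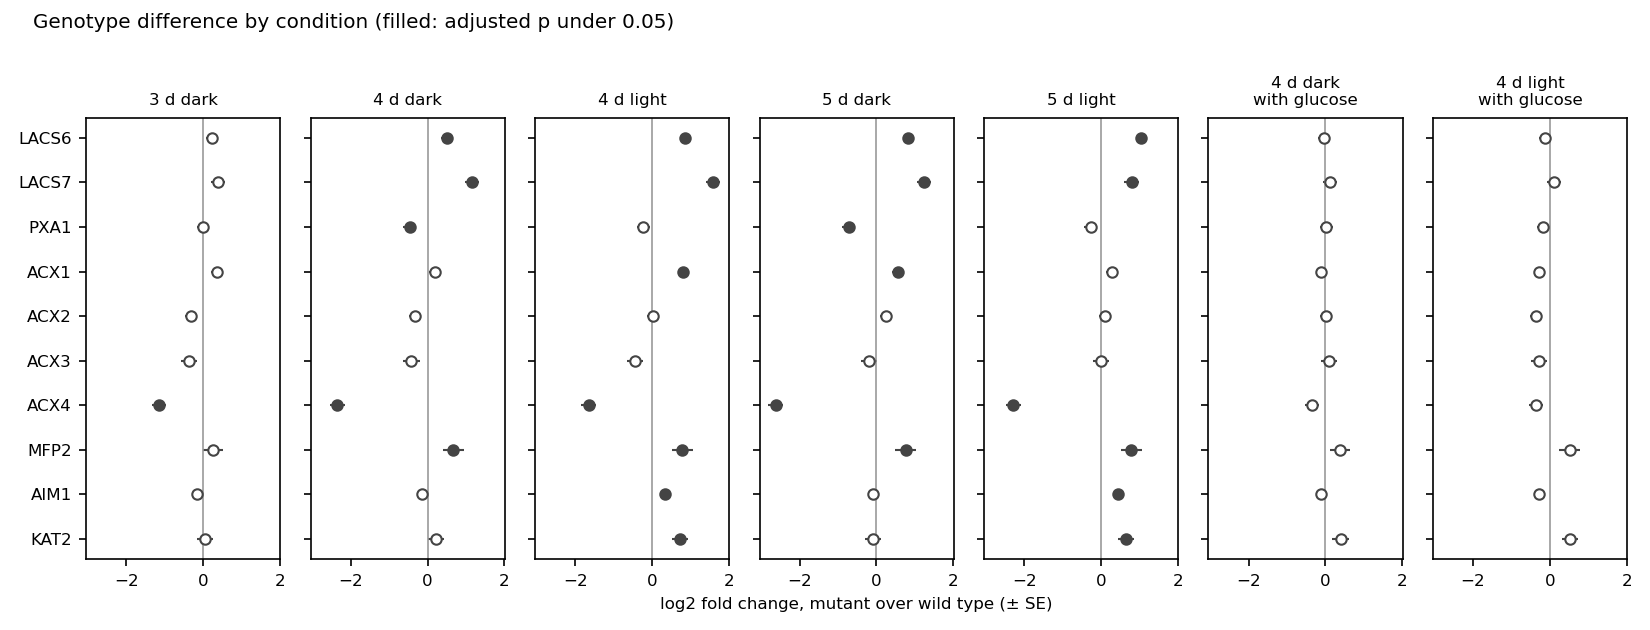
log2 fold change of the mutant over wild type ± SE (x axis) for the 10 members (rows) in the 7 conditions (panels), filled where the adjusted p was under 0.05. ACX4 lies far left in the 5 sugar-free panels, at -1.16 to -2.62, and every point is open in the panels with glucose.

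ACX4 (AT3G51840, chr3:19225360-19229163, minus strand), the oxidase that opens the rounds on short-chain acyl-CoA, had the widest genotype difference of the members in each of the 5 sugar-free conditions. At 3 d dark it read 89.7, 113 and 92.1 CPM in mutant libraries 1 to 3, against 202, 250.3 and 204 CPM in wild-type seedlings. The groups were apart (-1.16 ± 0.19, adjusted p = 1.43e-05). At 4 d dark it read 104, 90.2 and 93.1 CPM in mutant seedlings, against 422, 454 and 587 CPM in wild-type seedlings (-2.35 ± 0.19, adjusted p = 3.67e-11). At 4 d light it read 129.9, 119 and 123 CPM in mutant seedlings, against 459, 339.8 and 371 CPM in wild-type seedlings (-1.65 ± 0.19, adjusted p = 9.37e-09). Every mutant library stayed at or below 129.9 CPM at 4 d, and every wild-type library was at or above 339.8 CPM. At 5 d dark it read 83.0, 116 and 122 CPM in mutant seedlings, against 555, 721 and 696 CPM in wild-type seedlings (-2.62 ± 0.19, adjusted p = 1.57e-12). At 5 d light it read 150.2, 116 and 151 CPM in mutant seedlings, against 732, 585 and 716 CPM in wild-type seedlings (-2.29 ± 0.19, adjusted p = 8.52e-12). Coordinates of all members are those of the counted models in the files (TAIR10). These 5 calls held in every alternative run, each library left out in turn included. In the dark with glucose the levels ran together, at 76.7, 112 and 87.2 CPM in mutant seedlings and 126, 81.1 and 145 CPM in wild-type seedlings (-0.35 ± 0.18, adjusted p = 1). Without the pair of libraries that stood with the other genotype, the difference there was -0.73 ± 0.20 (adjusted p = 0.0271), the 1 member call in that comparison. That run tested 23239 genes and also called others, KIN11, ACX5 and KAT5 among them. Its share of all genes called is not given here, and the share given above is from the fit with the pair. In light with glucose the groups did not overlap but lay close, at 122, 113 and 98.1 CPM in mutant seedlings and 158, 133 and 134 CPM in wild-type seedlings (-0.35 ± 0.18, adjusted p = 0.235).

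The 250 bases upstream of the counted model are printed for ACX4 and LACS7, which had the widest differences below and above 0 among the members, and for MFP2 as a member called higher in the same 4 conditions as LACS7. The stretches were read 5′ to 3′ on the strand of the gene from the RefSeq TAIR10.1 genome: ACX4 from chr3:19229164-19229413 (minus strand), MFP2 from chr3:2161619-2161868 (plus strand) and LACS7 from chr5:9742326-9742575 (plus strand). At the files' TAIR10 coordinates 98.8% of 175122 introns began with GT and ended with AG in that genome. Capitals mark matches, on either strand, to the ACGT core and to the I-box GATAAG.
ACX4: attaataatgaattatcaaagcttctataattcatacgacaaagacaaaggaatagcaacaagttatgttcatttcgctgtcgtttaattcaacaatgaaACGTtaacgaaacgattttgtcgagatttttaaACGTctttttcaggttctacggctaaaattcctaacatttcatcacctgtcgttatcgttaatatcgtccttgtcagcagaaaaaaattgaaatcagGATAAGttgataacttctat
MFP2: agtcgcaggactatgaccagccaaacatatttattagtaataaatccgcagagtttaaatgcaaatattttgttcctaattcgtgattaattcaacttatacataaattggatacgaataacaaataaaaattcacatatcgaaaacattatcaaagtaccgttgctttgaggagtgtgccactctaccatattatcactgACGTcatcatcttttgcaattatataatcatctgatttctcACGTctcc
LACS7: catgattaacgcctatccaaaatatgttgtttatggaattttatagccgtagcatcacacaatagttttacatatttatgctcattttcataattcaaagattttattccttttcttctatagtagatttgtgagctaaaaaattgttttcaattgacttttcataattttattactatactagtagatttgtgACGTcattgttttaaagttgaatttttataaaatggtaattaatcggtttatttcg
The ACGT core stood at -150 and -117 in ACX4, at -49 and -8 in MFP2 and at -56 in LACS7, counted from the model's start, and the I-box stood at -20 in ACX4. Of the 10 members, 5 held an ACGT core (ACX1, ACX2, ACX4, MFP2 and LACS7), against 43.8% of 32398 such stretches. The I-box was in 4 (ACX2, ACX3, ACX4 and KAT2), against 13.1%. The G-box CACGTG, which contains the ACGT core, was in 1 (ACX1), against 6.83%, and the telo-box AAACCCTA was in none, against 6.35%. LACS6, also called higher in the 4 conditions of LACS7, is not printed, and its stretch held none of these motifs. The matches describe letters in this window and no binding.

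Activation and import open the pathway. LACS7 (AT5G27600, chr5:9742576-9747005, plus strand), which activates long-chain fatty acids inside the peroxisome together with LACS6, read 114, 104 and 100.2 CPM in mutant seedlings and 41.7, 62.8 and 38.1 CPM in wild-type seedlings at 4 d dark (1.15 ± 0.19, adjusted p = 3.19e-06). At 4 d light it read 98.3, 116 and 120.2 CPM in mutant seedlings and 38.3, 40.1 and 32.9 CPM in wild-type seedlings (1.59 ± 0.19, adjusted p = 2.1e-08). All mutant libraries lay above all wild-type libraries in both. At 5 d dark it read 107, 91.9 and 105 CPM in mutant seedlings and 45.5, 41.3 and 42.0 CPM in wild-type seedlings (1.24 ± 0.19, adjusted p = 9.71e-07). At 5 d light it read 64.2, 113 and 68.1 CPM in mutant seedlings and 50.3, 43.3 and 47.9 CPM in wild-type seedlings (0.80 ± 0.19, adjusted p = 0.000472). Mutant library 2 stood above the other mutant libraries there, and without it the difference was 0.48 (adjusted p = 0.0242). Without the libraries of raised KIN10 only that high library is left in the mutant at 5 d light (1.30). At 3 d dark LACS7 read 110.2, 120.0 and 120.0 CPM in mutant seedlings and 115, 55.8 and 95.6 CPM in wild-type seedlings, where wild-type library 2 was low (0.40 ± 0.18, adjusted p = 0.094). Same-numbered libraries of the genotypes deviated together weakly in that condition, though the titles give a number and no pairing. With the number as a block the LACS7 difference passed (0.46, adjusted p = 0.0488), which made 2 member calls. It also passed without wild type 3 d dark library 1 (0.62, adjusted p = 0.0155).

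LACS6 (AT3G05970, chr3:1786318-1791802, minus strand) was higher in the mutant in the same 4 conditions. Its widest difference was at 5 d light, where it read 98.7, 143 and 93.7 CPM in mutant seedlings and 56.2, 47.3 and 58.1 CPM in wild-type seedlings (1.05 ± 0.14, adjusted p = 1.58e-07). It was also higher at 4 d dark (0.50 ± 0.14, adjusted p = 0.00282), 4 d light (0.87 ± 0.14, adjusted p = 5e-06) and 5 d dark (0.83 ± 0.14, adjusted p = 7.22e-06), with no overlap of the groups. At 3 d dark the groups overlapped (0.23 ± 0.14, adjusted p = 0.227).

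PXA1 (AT4G39850, chr4:18488437-18497133, plus strand), the ABC transporter that takes fatty acyl groups into the peroxisome, was lower in the mutant at 4 d and 5 d dark and not at 3 d dark, where it read 60.6, 67.9 and 71.4 CPM in mutant seedlings and 73.2, 61.4 and 66.2 CPM in wild-type seedlings (-0.01 ± 0.16, adjusted p = 0.988). At 5 d dark it read 74.6, 67.3 and 74.2 CPM in mutant seedlings and 98.3, 152 and 106 CPM in wild-type seedlings (-0.72 ± 0.17, adjusted p = 0.000345). At 4 d dark it read 67.6, 79.2 and 52.1 CPM in mutant seedlings and 87.3, 91.7 and 95.1 CPM in wild-type seedlings (-0.46 ± 0.17, adjusted p = 0.0167), a call that did not hold without mutant 4 d dark library 3 (adjusted p = 0.138) and under library totals (-0.20, adjusted p = 0.315). In light the differences were -0.23 ± 0.17 at 4 d and -0.26 ± 0.17 at 5 d (adjusted p = 0.247 and 0.18), and the 5 d difference passed without wild type 5 d light library 2 (-0.41, adjusted p = 0.0447). At 4 d and 5 d dark PXA1 was thus lower in the mutant where LACS6 and LACS7 were higher.

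ACX1 (AT4G16760, chr4:9424633-9428864, minus strand), which takes long-chain and medium-chain acyl-CoA, read 265, 432 and 399.8 CPM in mutant seedlings and 216, 207 and 200.0 CPM in wild-type seedlings at 4 d light (0.82 ± 0.15, adjusted p = 2.9e-05). At 5 d dark it read 529, 351 and 450.2 CPM in mutant seedlings and 300.0, 290.4 and 316 CPM in wild-type seedlings (0.55 ± 0.15, adjusted p = 0.00195). The groups did not overlap in either. At 5 d light they overlapped (0.28 ± 0.15, adjusted p = 0.111). Without the mutant light libraries of raised KIN10, which leaves only mutant library 2 there, the difference was 0.57. ACX2 (AT5G65110, chr5:26009635-26012519, minus strand), an oxidase of long chains, differed by -0.35 to 0.25 over the 7 conditions. ACX3 (AT1G06290, chr1:1922352-1926278, plus strand), the medium-chain oxidase, differed by -0.45 to 0.10. Neither passed in any condition, and their smallest adjusted p were 0.0761 for ACX2 and 0.0681 for ACX3. Calls of both signs appeared for ACX2 elsewhere, under library totals at 5 d dark (0.47, adjusted p = 0.00729) and 5 d light (0.56, adjusted p = 0.00162), and at 3 d dark without mutant library 2 (-0.46, adjusted p = 0.041). Its value at 5 d light with only mutant library 2 left, without the libraries of raised KIN10, was 0.48. ACX3 passed at 4 d dark with only the libraries compared in the fit (-0.37, adjusted p = 0.0326), at 4 d light without the libraries of raised KIN10 (-0.55, adjusted p = 0.0464), at 4 d dark without mutant library 2 (-0.57, adjusted p = 0.0398) and at 4 d light without mutant library 3 (-0.63, adjusted p = 0.0237).

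MFP2 (AT3G06860, chr3:2161869-2166349, plus strand) and AIM1 (AT4G29010, chr4:14297044-14302147, minus strand) both carry the hydratase and dehydrogenase steps. MFP2 read 157, 141 and 176 CPM in mutant seedlings and 89.7, 115 and 70.3 CPM in wild-type seedlings at 4 d light (0.79 ± 0.27, adjusted p = 0.0147). At 5 d dark it read 157, 152 and 217 CPM in mutant seedlings and 108, 98.2 and 104 CPM in wild-type seedlings (0.76 ± 0.27, adjusted p = 0.0155). MFP2 was also higher at 5 d light (0.79 ± 0.27, adjusted p = 0.0135) and at 4 d dark (0.67 ± 0.27, adjusted p = 0.035). The groups did not overlap in these 4 conditions, but each call rested on single libraries. The 4 d dark call was lost without any 1 of mutant 4 d dark libraries 1 and 2 and wild type 4 d dark libraries 1 and 3 (adjusted p = 0.0586 to 0.183). The 4 d light call was lost without library 3 of either genotype (adjusted p = 0.0507 to 0.0885), the 5 d dark call without mutant 5 d dark library 3 (adjusted p = 0.0969) and the 5 d light call without wild type 5 d light library 2 (adjusted p = 0.062).

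AIM1 was called higher in the mutant at 4 d and 5 d in light. At 5 d light it read 111, 127 and 126 CPM in mutant seedlings and 87.3, 86.2 and 91.5 CPM in wild-type seedlings (0.45 ± 0.11, adjusted p = 0.000591). At 4 d light the difference was 0.34 ± 0.11 (adjusted p = 0.00811), and it did not pass without wild type 4 d light library 1 (adjusted p = 0.0533) or without the mutant light libraries of raised KIN10 (adjusted p = 0.0546). In the dark AIM1 stood at 121 ± 10.7 CPM in mutant seedlings and 129.6 ± 11.3 CPM in wild-type seedlings at 5 d (SD, n = 3 each), a difference of -0.10 ± 0.11 (adjusted p = 0.456). AIM1 overlaps a gene on the other strand by 23 bases, and the headers name no strand option.

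KAT2 (AT2G33150, chr2:14047478-14051140, minus strand), the main thiolase, releases acetyl-CoA at the end of each round. At 4 d light it read 268, 243 and 303 CPM in mutant seedlings and 159, 198 and 135 CPM in wild-type seedlings (0.73 ± 0.21, adjusted p = 0.00441). At 5 d light it read 317, 281 and 362 CPM in mutant seedlings and 212, 194 and 205 CPM in wild-type seedlings (0.65 ± 0.21, adjusted p = 0.0086). Without the mutant light libraries of raised KIN10, which leaves only mutant library 2 at 5 d light, the difference was 0.51. In the dark the genotypes overlapped, with differences of 0.04 ± 0.21 at 3 d, 0.23 ± 0.21 at 4 d and -0.08 ± 0.21 at 5 d (adjusted p = 0.91, 0.37 and 0.761).

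With glucose no member separated the genotypes at the threshold. In the dark with glucose edgeR called no member and no gene at all, no member and 532 genes had an unadjusted p under 0.05, and DESeq2 called none of either. The groups of 3 members, MFP2, KAT2 and LACS7, did not overlap there, against 6.5% of all genes. In light with glucose 3 members had an unadjusted p under 0.05 and DESeq2 called none, while edgeR called 2137 genes. There 5 members did not overlap (ACX1, ACX2, ACX4, AIM1 and LACS7), against 34.1% of all genes. MFP2 read 301, 553 and 206 CPM in mutant seedlings and 288, 202 and 251 CPM in wild-type seedlings in light with glucose. KAT2 read 401, 707 and 349 CPM in mutant seedlings and 360.5, 300.3 and 344 CPM in wild-type seedlings. Mutant library 2 was the highest library for both genes.

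Light was compared with dark within each genotype. In wild type at 4 d 5 members were lower in light (27.9% of all genes were called, 13.5% lower), and at 5 d 4 were lower (35.4%, 18.9% lower), with none higher at either age. AIM1 averaged 88.4 ± 2.80 CPM in light and 129.6 ± 11.3 CPM in dark at 5 d (-0.55 ± 0.11, adjusted p = 0.000147), and 80.3 ± 5.36 CPM in light and 120.0 ± 7.56 CPM in dark at 4 d (-0.58 ± 0.11, adjusted p = 0.00014). KAT2 was lower by a similar size at 4 d (-0.72 ± 0.21, adjusted p = 0.0106) and 5 d (-0.68 ± 0.21, adjusted p = 0.0119). PXA1 (-0.54 ± 0.17 at 4 d and -0.61 ± 0.17 at 5 d) and LACS6 (-0.41 ± 0.14 and -0.53 ± 0.14) were lower at both ages, and ACX1 at 4 d (-0.46 ± 0.15, adjusted p = 0.022). ACX4, the most abundant of the oxidases in these groups, read 732, 585 and 716 CPM in light and 555, 721 and 696 CPM in dark at 5 d, which overlapped. At 4 d the call was lost for LACS6 without any 1 of wild type 4 d light libraries 1 and 3 and wild type 4 d dark libraries 1 and 2 (adjusted p = 0.0585 to 0.151), for ACX1 without wild type 4 d light libraries 2 or 3 or wild type 4 d dark library 3 (adjusted p = 0.0567 to 0.0772), for KAT2 without wild type 4 d light library 3 or wild type 4 d dark library 2 (adjusted p = 0.0614 to 0.0755) and for PXA1 without wild type 4 d light library 3 (adjusted p = 0.0595). At 5 d it was lost for KAT2 without wild type 5 d dark library 1 (adjusted p = 0.0513) and for PXA1 without wild type 5 d dark library 2 (-0.40, adjusted p = 0.0755).

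In the mutant no member was called between light and dark at 4 d (2.37% of all genes) or 5 d (11.7%). edgeR's unadjusted p was under 0.05 for no member at 4 d and for 4 at 5 d, and DESeq2 called none at 4 d and 1 at 5 d (ACX1, -0.40, adjusted p = 0.0422). KAT2 read 317, 281 and 362 CPM in light and 297, 275 and 353 CPM in dark at 5 d in the mutant, and the groups overlapped. Without mutant 5 d light library 2 ACX1, ACX2, LACS6 and LACS7 passed at 5 d (-0.58, -0.57, -0.53 and -0.63, adjusted p = 0.00643 to 0.0111), and ACX1 passed without mutant 5 d dark library 2 (adjusted p = 0.0367). Whether light acted differently in the genotypes was tested as an interaction, mutant minus wild type. AIM1 passed at 4 d (0.48 ± 0.15, adjusted p = 0.0445, 9.18% of all genes called) and at 5 d (0.55 ± 0.15, adjusted p = 0.00777, 27.3%). It was the 1 member to do so at each age. The 4 d interaction did not pass without any 1 of 11 of the 12 libraries (adjusted p = 0.051 to 0.108), the exception being mutant 4 d light library 2, and ACX1 passed without mutant 4 d light library 1 (0.82, adjusted p = 0.0136). For KAT2 the interaction at 5 d was 0.73 ± 0.30 (adjusted p = 0.0649), and without mutant 5 d light library 2 KAT2 and LACS7 passed (0.81 and -0.76, adjusted p = 0.0419 and 0.0157).

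Age was compared within each genotype. In wild-type dark, 4 members were called between 4 d and 3 d (24.2% of all genes). ACX4 rose, with 422, 454 and 587 CPM at 4 d and 202, 250.3 and 204 CPM at 3 d (1.15 ± 0.19, adjusted p = 4.04e-05). LACS7 fell (-0.90 ± 0.18, adjusted p = 0.000599), as did MFP2 (-0.78 ± 0.27, adjusted p = 0.0321), and PXA1 rose (0.45 ± 0.16, adjusted p = 0.0439). Wild-type 3 d library 2 was low for MFP2, at 107 CPM beside 288 and 241 CPM. The MFP2 call was lost without any 1 of wild type 4 d dark libraries 1 and 3 and wild type 3 d dark libraries 1 and 3 (adjusted p = 0.118 to 0.253; -0.50 without the 3 d library 1), and the PXA1 call without any 1 of the 6 libraries (adjusted p = 0.0569 to 0.132). KAT2 passed without wild type 3 d library 2 (-0.59, adjusted p = 0.0417). With only the 6 libraries compared in the fit, LACS7 had adjusted p = 0.0567 and MFP2 0.122.

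Between 5 d and 4 d no member was called in wild-type dark (9.42% of all genes): 3 had an unadjusted p under 0.05 with edgeR and DESeq2 called none. In wild-type light 2 members rose (26.8% of all genes were called, 13.6% higher). ACX4 averaged 678 ± 80.7 CPM at 5 d and 389.7 ± 61.7 CPM at 4 d (0.80 ± 0.18, adjusted p = 0.00151). ACX1 passed narrowly (0.40 ± 0.15, adjusted p = 0.0471), and lost the call without any 1 of wild type 5 d light libraries 1 and 3 and wild type 4 d light libraries 1, 2 and 3 (adjusted p = 0.0712 to 0.175). In the mutant no member was called between 4 d and 3 d dark (24.2%) or between 5 d and 4 d light (2.6%), where edgeR's unadjusted p was under 0.05 for 0 and 2 members and DESeq2 called none. LACS7 passed in light without mutant 5 d light library 2 (-0.77, adjusted p = 0.00537). Between 5 d and 4 d dark (11.6%) ACX1 rose (0.45 ± 0.15, adjusted p = 0.045), with 529, 351 and 450.2 CPM at 5 d and 349, 319 and 304 CPM at 4 d, a call lost without any 1 of 5 of the 6 libraries, mutant 5 d dark library 2 being the exception (adjusted p = 0.0895 to 0.205). LACS6 passed without mutant 5 d dark library 1 (0.50, adjusted p = 0.0239). ACX4 in the mutant stayed within 83.0 to 151 CPM in all its sugar-free libraries. The genotypes differed in the change of ACX4 between 4 d and 3 d dark (-1.19 ± 0.26, adjusted p = 0.00498), the 1 member called in that interaction (10.6% of all genes). LACS7 joined it without wild type 3 d dark library 2 (1.00, adjusted p = 0.00468) or 4 d dark library 2 (1.01, adjusted p = 0.0146). None was called in the interaction of 5 d with 4 d dark (0.235%), where 1 had an unadjusted p under 0.05 with edgeR and DESeq2 called none.

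Glucose was compared with no sugar at 4 d. All glucose libraries carry titles of the second series and all sugar-free 4 d libraries titles of the first, so glucose and series cannot be told apart. In wild-type dark 4 members were called (42.9% of all genes). ACX4 fell to 117 ± 32.9 CPM with glucose, against 487 ± 87.5 CPM without (-2.05 ± 0.19, adjusted p = 5.45e-10). ACX2 fell to 129.8 ± 18.2 CPM, against 247 ± 33.8 CPM (-0.93 ± 0.16, adjusted p = 1.54e-05). MFP2 (0.92 ± 0.27, adjusted p = 0.00646) and LACS7 (0.73 ± 0.18, adjusted p = 0.00179) rose with glucose. The oxidases that fell and the synthetase and multifunctional protein that rose did not overlap between the groups. These members were picked by their calls, and the share of all genes without overlap is not given for this comparison.

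In wild-type light 7 members were called with glucose (36.4% of all genes). ACX4 read 158, 133 and 134 CPM with glucose and 459, 339.8 and 371 CPM without (-1.46 ± 0.19, adjusted p = 1.96e-07). ACX2 fell as well (-0.44 ± 0.16, adjusted p = 0.0255), a call that did not hold without wild type 4 d light with glucose libraries 2 or 3 or wild type 4 d light library 1 (adjusted p = 0.0794 to 0.102) and under library totals (-0.17, adjusted p = 0.376). MFP2 read 288, 202 and 251 CPM with glucose and 89.7, 115 and 70.3 CPM without (1.43 ± 0.28, adjusted p = 0.000101). LACS7 (1.29 ± 0.19), KAT2 (1.03 ± 0.21), AIM1 (0.69 ± 0.11) and LACS6 (0.67 ± 0.14) also rose, with adjusted p of 1.62e-06, 0.000253, 5.69e-06 and 0.000371.

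In the mutant 3 members were called with glucose in the dark (40.7% of all genes) and 5 in light (43.0%). ACX1 fell in both, to 195 ± 18.2 CPM in light with glucose, against 366 ± 89.0 CPM without (-0.91 ± 0.15, adjusted p = 1.3e-05), and -0.56 ± 0.15 in the dark (adjusted p = 0.00325). ACX2 fell in both (-0.80 ± 0.16 in light and -0.58 ± 0.16 in the dark, adjusted p = 0.000104 and 0.00356). LACS6 fell in the dark (-0.45 ± 0.14, adjusted p = 0.0107), and without the pair that stood with the other genotype its value was -0.41 ± 0.16 (adjusted p = 0.0517). Without mutant 4 d dark library 2, MFP2 (0.84, adjusted p = 0.0305) and KAT2 (0.60, adjusted p = 0.0455) passed in the dark. MFP2 (1.16 ± 0.27, adjusted p = 0.00086), KAT2 (0.84 ± 0.21, adjusted p = 0.00176) and ACX3 (0.53 ± 0.21, adjusted p = 0.0417) rose in light. Without mutant 4 d light with glucose library 2, KAT2 fell short at 0.47 (adjusted p = 0.0718), ACX3 was at 0.16 (adjusted p = 0.576) and MFP2 still passed at 0.68 (adjusted p = 0.0397). ACX3 also lost its call without mutant 4 d light library 1 (0.57, adjusted p = 0.0541) or 2 (0.33, adjusted p = 0.274). PXA1 passed without mutant 4 d light library 3 (0.47, adjusted p = 0.0368). ACX4 in the mutant read 76.7, 112 and 87.2 CPM with glucose and 104, 90.2 and 93.1 CPM without in the dark, and 122, 113 and 98.1 CPM with glucose and 129.9, 119 and 123 CPM without in light. Neither pair differed beyond its spread (-0.06 ± 0.18 and -0.16 ± 0.18, adjusted p = 0.818 and 0.515).

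The interaction of glucose with genotype, mutant minus wild type, passed for 3 members in the dark (37.3% of all genes) and 5 in light (29.8%). ACX4 was positive in both, 1.99 ± 0.26 in the dark and 1.30 ± 0.26 in light (adjusted p = 1.29e-06 and 0.000296), its fall with glucose being called in wild type and not in the mutant. Without the pair that stood with the other genotype the value in the dark was 1.62 ± 0.26 (adjusted p = 4.5e-05). LACS7 was negative in both, -1.03 ± 0.26 and -1.48 ± 0.26 (adjusted p = 0.0022 and 6.37e-05), as was LACS6, -0.55 ± 0.20 and -1.0 ± 0.20 (adjusted p = 0.0296 and 0.000284). The LACS6 interaction in the dark did not pass without mutant 4 d dark with glucose libraries 2 or 3 or mutant 4 d dark library 2 or wild type 4 d dark with glucose library 3 or wild type 4 d dark libraries 1 or 3 (adjusted p = 0.0608 to 0.086), nor without the pair that stood with the other genotype (adjusted p = 0.097). PXA1 passed in the dark without wild-type glucose library 2 (0.63, adjusted p = 0.0483) or mutant sugar-free library 2 (0.64, adjusted p = 0.0408). ACX1 (-1.09 ± 0.21, adjusted p = 0.00023) and AIM1 (-0.63 ± 0.15, adjusted p = 0.00214) were negative in light. These interactions and the sugar-free genotype differences share their 4 d libraries and are not independent.

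**Figure D3:**
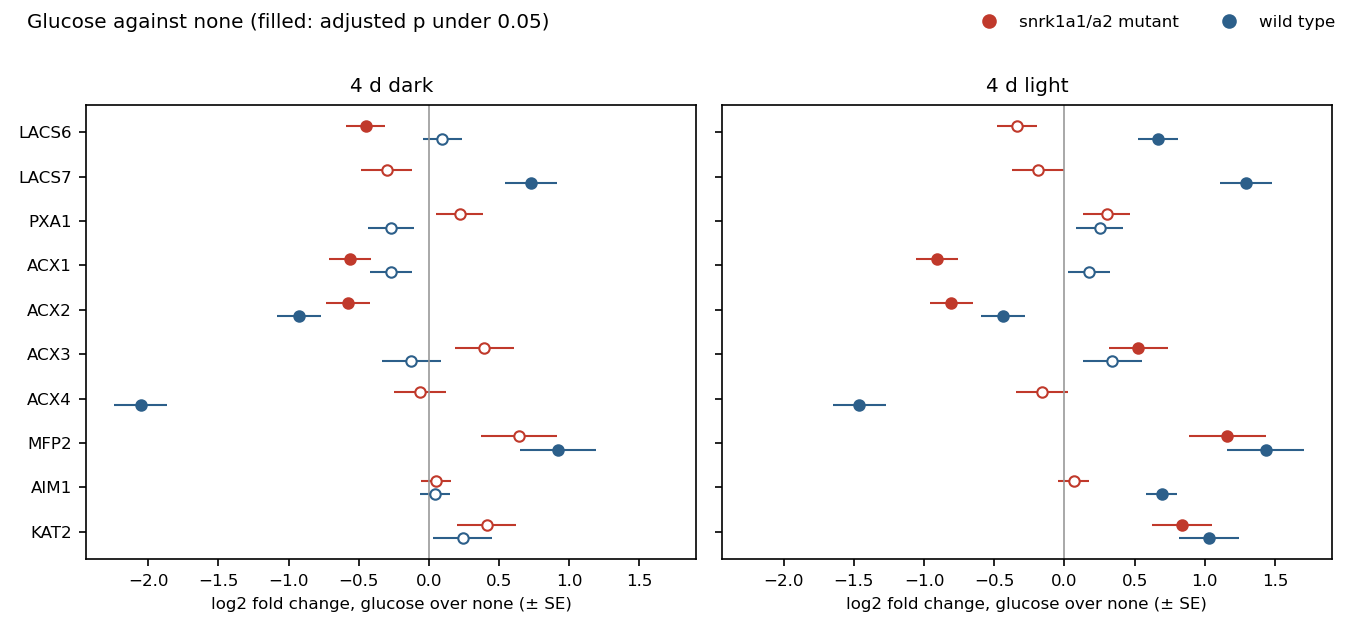
log2 fold change of glucose over none ± SE (x axis) at 4 d in the dark (left) and in light (right) for the 10 members (rows), mutant in red and wild type in blue, filled where the adjusted p was under 0.05. The wild-type point of ACX4 lies at -2.05 in the dark and -1.46 in light, and that of the mutant at -0.06 and -0.16.

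The make-up of each step was described per length, as shares of summed TPM, with no test. ACX4 made 25.8% ± 5.59 of the 4 oxidases in the mutant and 65.6% ± 0.453 in wild type at 5 d light (SD, n = 3 each). At 3 d dark its share was 18.9% ± 1.00 in the mutant and 34.1% ± 4.65 in wild type. In light with glucose it was 28.6% ± 3.51 in the mutant and 29.2% ± 1.51 in wild type. The wild-type share in sugar-free groups lay above the mutant share in every library, and with glucose the groups overlapped. In the dark with glucose the overlap rested on the pair that stood with the other genotype. Without it the share was 20.5% and 23.4% in mutant libraries 1 and 3, and 29.7% and 29.4% in wild-type libraries 1 and 3. LACS7 made 52.1% ± 1.37 of the synthetase pair in the mutant and 39.8% ± 2.02 in wild type at 4 d light, and 41.9% ± 2.40 in the mutant and 46.7% ± 1.34 in wild type at 5 d light. Its share was thus higher in the mutant at 4 d light and lower at 5 d light, with no overlap in either.

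KAT2 made 91.4% ± 2.57 of the thiolases KAT1, KAT2 and KAT5 in the mutant and 94.5% ± 0.849 in wild type at 5 d dark. In light with glucose its share was 72.1% ± 7.31 in the mutant and 64.9% ± 2.63 in wild type, below every sugar-free group mean of either genotype. Summed over the 10 members, levels were 1051 ± 125 TPM in the mutant and 1114 ± 124 TPM in wild type at 5 d dark, and 854 ± 71.4 TPM in the mutant and 676 ± 27.4 TPM in wild type at 4 d light. Without ACX4 the sums were 966 ± 119.8 TPM in the mutant and 670.3 ± 38.8 TPM in wild type at 5 d dark, and 764 ± 69.2 TPM in the mutant and 437 ± 30.9 TPM in wild type at 4 d light. TPM carry no TMM factor. Under library totals, likewise without such factors, the median log2 fold change of all genes was 0.32 at 4 d light and 0.19 at 5 d dark. On the TPM measure the other 9 members together were higher in the mutant in both, and ACX4 offset this in the 5 d dark sum. How much of these differences comes from the scaling was not tested.

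**Figure D4:**
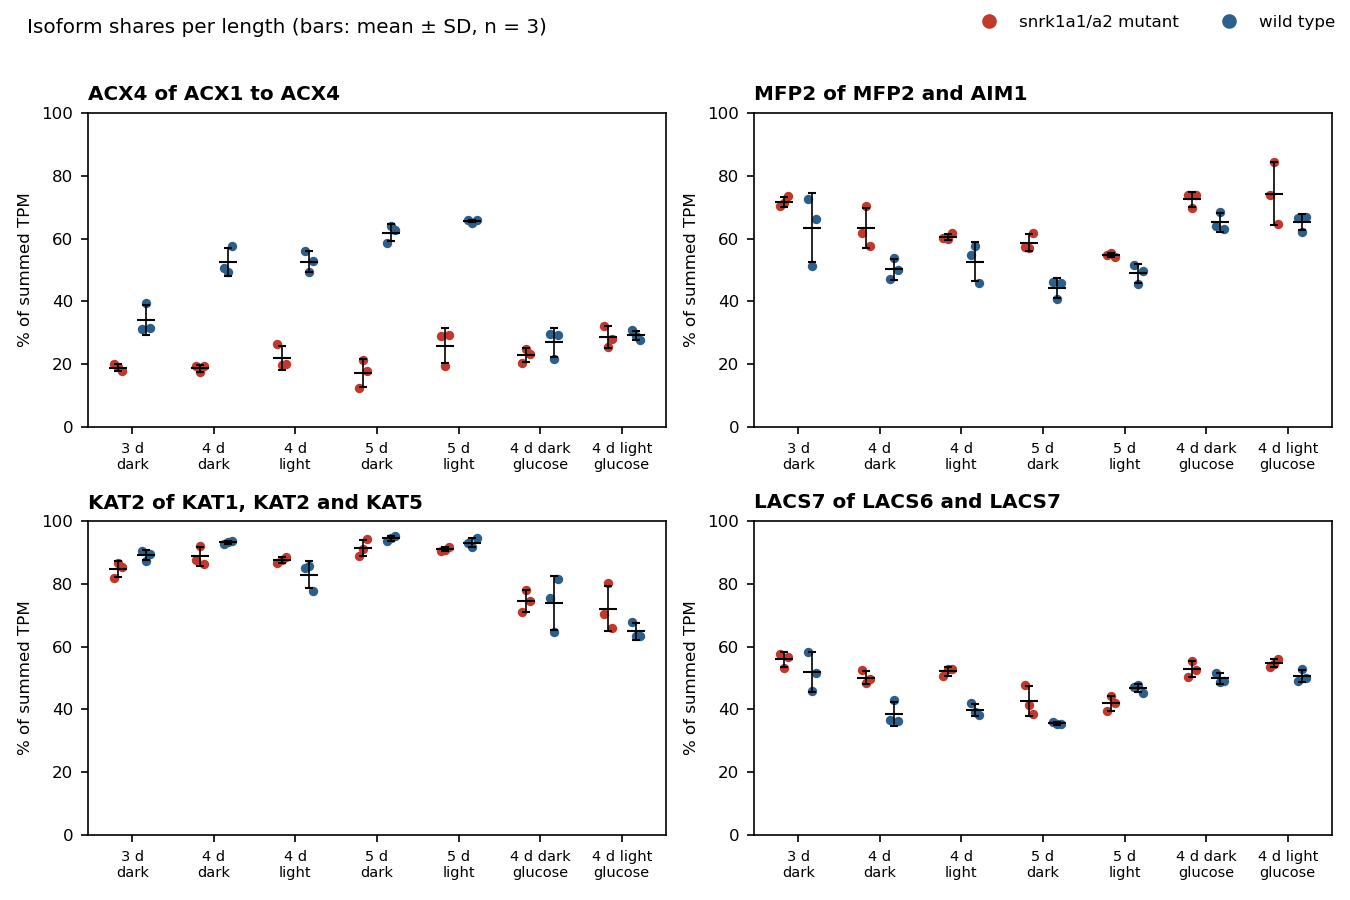
Share of summed TPM in percent (y axis, 0 to 100) by condition (x axis) for 4 steps of the pathway, mutant in red and wild type in blue, points for libraries and bars at the mean ± SD of 3. The ACX4 share reaches 65.6% in wild type at 5 d light and averages at most 28.6% in any mutant group.

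Other genes around the pathway were counted from lists chosen with earlier results of these data known. Of 32 such genes (further core isoforms, auxiliary enzymes, cofactor and carrier genes, lipid supply, jasmonate-related enzymes and hydrogen peroxide removal), 31 could be tested. In the mutant 6 were higher and 4 lower at 3 d dark, 10 and 7 at 4 d dark, 13 and 9 at 4 d light, 9 and 10 at 5 d dark, 10 and 10 at 5 d light, none in either direction in the dark with glucose, and 3 and 2 in light with glucose. Under library totals these were 7 and 3 at 3 d dark, 16 and 6 at 4 d dark, 16 and 7 at 4 d light, 14 and 6 at 5 d dark and 17 and 6 at 5 d light. With TMM, 17.3%, 29.5%, 28.8%, 29.9% and 33.4% of all genes were called higher in the sugar-free conditions, in that order. Called lower were 14.3%, 28.5%, 25.2%, 31.4% and 26.4%. In light with glucose 9.46% were called in either direction. The TMM counts of the list lay near the sugar-free shares, apart from more called higher at 4 d light. The 31 genes had a median log2 fold change of 0.26 at 4 d light, beside 0.04 over all genes. At 5 d light it was 0.02, beside 0.19. PMDH2, a peroxisomal malate dehydrogenase that recycles NADH, averaged 55.8 ± 14.7 CPM in mutant seedlings and 888 ± 61.7 CPM in wild-type seedlings at 5 d light (-4.0 ± 0.28, adjusted p = 1.3e-13). CAT2, a catalase that removes the hydrogen peroxide made by the oxidases, averaged 423 ± 89.5 CPM in mutant seedlings and 4015 ± 678 CPM in wild-type seedlings at 5 d light (-3.24 ± 0.22, adjusted p = 8.05e-14). CAT3, another catalase, was lower too (-2.48 ± 0.31 at 4 d dark, adjusted p = 4.83e-08).

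CGI58, a lipid-metabolism protein that binds PXA1, was higher: it averaged 130.1 ± 6.97 CPM in mutant seedlings and 41.6 ± 4.71 CPM in wild-type seedlings at 5 d dark (1.64 ± 0.15, adjusted p = 4.08e-11). OPCL1 and OPR3 act on jasmonate precursors. OPCL1 averaged 14.5 ± 2.13 CPM in mutant seedlings and 3.81 ± 0.69 CPM in wild-type seedlings at 4 d light (1.93 ± 0.18, adjusted p = 2.53e-10), and OPR3 rose by 0.55 ± 0.12 at 3 d dark (adjusted p = 0.000641). ACX5, a close relative of ACX1, was lower in the mutant in all 5 sugar-free conditions, with -1.33 ± 0.22 at 4 d dark and -0.77 ± 0.21 at 3 d dark on the log2 scale. It was named after its values were seen, and its 3 d dark call was lost without mutant library 1 (adjusted p = 0.0526). Counts of such relatives are less certain where reads match more than 1 gene.

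Peroxisome biogenesis genes were more often called lower than higher in the mutant with TMM scaling, and not without scaling factors at 3 d dark, 4 d dark and 4 d light. Of 22, all tested, 1 was higher and 5 lower at 3 d dark, 4 and 10 at 4 d dark, 2 and 7 at 4 d light, 2 and 13 at 5 d dark, 1 and 15 at 5 d light, none in the dark with glucose, and 0 and 5 in light with glucose. Under library totals the counts were 3 and 0 at 3 d dark, 6 and 4 at 4 d dark, 9 and 6 at 4 d light, 6 and 7 at 5 d dark and 4 and 8 at 5 d light. With TMM, 14.3%, 28.5%, 25.2%, 31.4% and 26.4% of all genes were called lower in the sugar-free conditions, in that order. Called higher were 17.3%, 29.5%, 28.8%, 29.9% and 33.4%. In light with glucose 9.46% were called in either direction. Among the sugar-free conditions the list lay nearest the lower share at 4 d light and furthest above it at 5 d. The biogenesis genes had a median log2 fold change of -0.63 at 5 d light, beside 0.19 over all genes. PEX11D, which promotes peroxisome proliferation, averaged 22.2 ± 2.35 CPM in mutant seedlings and 135 ± 7.01 CPM in wild-type seedlings at 5 d light (-2.60 ± 0.18, adjusted p = 1.64e-13). Its relative PEX11E read -2.03 ± 0.14 there, a direction that turned with the first transcript model in place of the longest (0.0732, adjusted p = 0.693). At 4 d light PEX11E went from -1.02 to a called 0.68 with that model (adjusted p = 0.000297). APEM9, an anchor of the import ATPases, was lower at 5 d dark (-1.27 ± 0.15, adjusted p = 1.94e-08), and PEX5, the import receptor, at 4 d dark (-0.85 ± 0.15, adjusted p = 1.21e-05). Green-tissue markers were lower in the sugar-free conditions and in light with glucose, and shoot apex markers likewise, as given above, and their part in these counts was not tested.

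**Figure D5:**
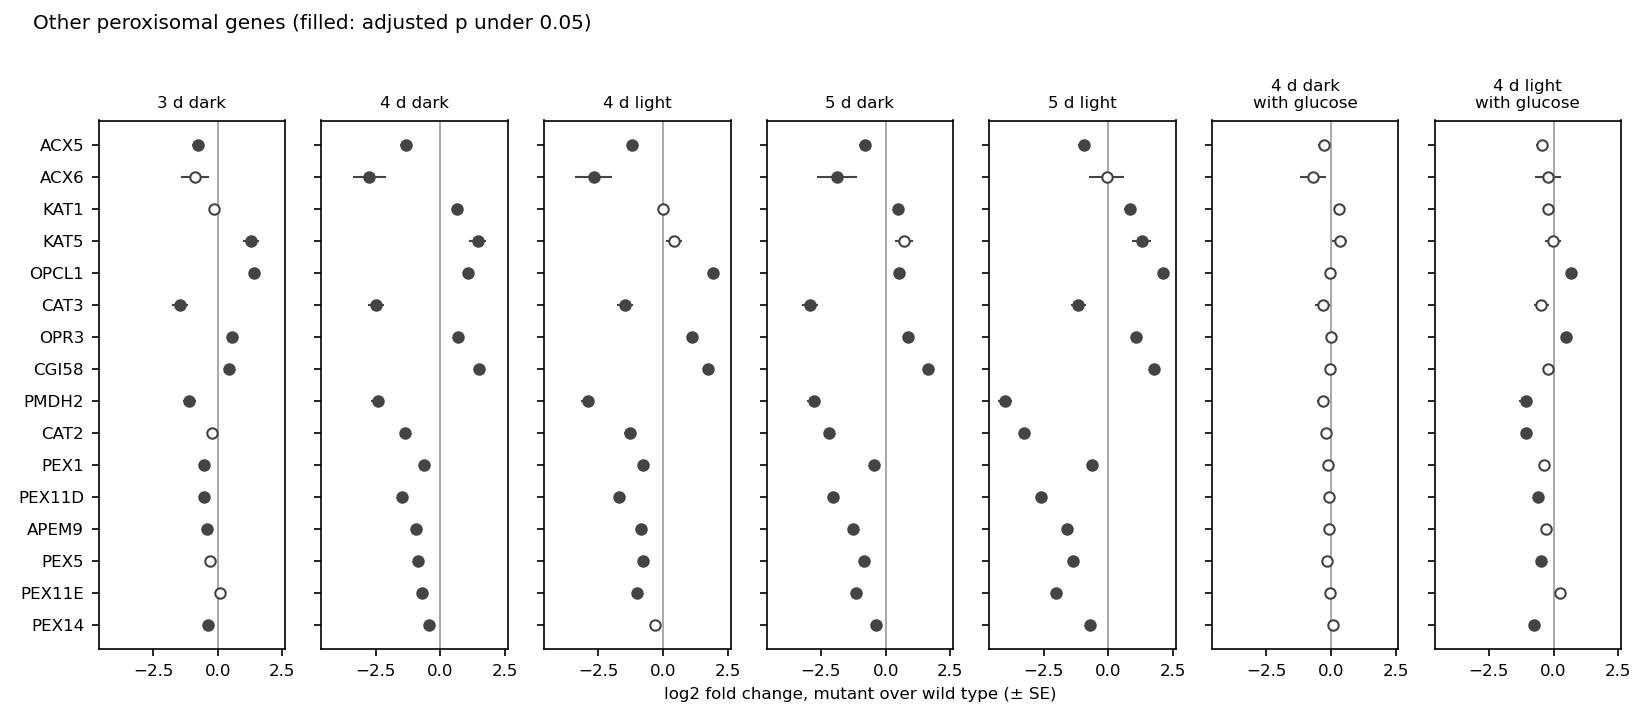
log2 fold change of the mutant over wild type ± SE (x axis) in the 7 conditions (panels) for 4 further isoforms of the core enzymes and for the pathway and biogenesis genes with the smallest adjusted p (rows), filled where the adjusted p was under 0.05. PMDH2 and CAT2 reach furthest left of those plotted at 5 d light, at -4.0 and -3.24.

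Likeness across conditions was measured as Pearson's r of log2 levels over the 14 group means, which share libraries and scaling, and is given as a description. Among the members, ACX4 ran opposite to LACS7 (r = -0.91) and MFP2 (r = -0.84). MFP2 ran with KAT2 (r = 0.85) and LACS7 (r = 0.80), and LACS6 with LACS7 (r = 0.74). Over all tested genes with a mean log2 CPM of at least 2, the closest to ACX4 were AT5G63195, AT5G51970 and AT5G63190 (r = 0.989 for each when rounded). The closest to MFP2 were GAMMA CA3 and PMDH1 (r = 0.974 for both when rounded), and the closest to LACS7 was ECHIA (r = 0.957).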

How the data were processed

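Seedling RNA-seq of 14 groups was used as gene-level read counts. The authors deposited raw counts per transcript model in 3 tables made with featureCounts 1.6.2 over TAIR10 exons with no strand option, per the file headers, and the tables also hold each model's deposited exonic length. STAR and DESeq2 are named in the submitters' processing notes, with no parameters. The aligner's settings are not given in the sources used here, and multi-mapping reads could raise or lower related genes. A gene was its longest model, which held 65.2% of counts over all models. The 3 d dark libraries appear in both title series with counts that agree within sampling noise (chi-square per degree of freedom 1.04 to 1.06, against 7.12 to 40.6 between different numbers), so the 6 pairs were summed, which gave 42 libraries. A column repeated with identical values was used once.

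Counts passing filterByExpr (22586 genes) were scaled by TMM and tested with edgeR 4.0.16 (robust quasi-likelihood, R 4.3.3) in 1 fit of all groups, with 28 residual degrees of freedom and a biological coefficient of variation of 21.1%. P-values were adjusted by Benjamini-Hochberg over all tested genes, with calls at adjusted p under 0.05, in 27 comparisons. DESeq2 1.42.0 and the alternatives of the closing section were also run, and the scripts were tested on simulated data. By a cut on the lowest r, replicate numbers were read as pairs only for mutant against wild type at 3 d dark. There same-numbered libraries deviated together weakly (r = 0.139 to 0.190). The titles give no pairing, and single r reached 0.524 in a comparison not read as paired (mutant, 5 d against 4 d light). TPM used the exonic lengths, and counting error is small beside the spread between libraries at these depths. Members and gene lists were chosen with earlier results of these data known. Members were always named, other pathway and biogenesis genes by up to 3 smallest adjusted p per genotype comparison, and pattern likeness by the 3 highest r. A biogenesis gene that this rule names is not reported here. Root markers (6 genes) had 0 higher and 3 lower, and shoot apex markers (4 genes, 2 tested) 0 higher and 2 lower, in the mutant at 4 d dark. Of all genes 29.5% were called higher and 28.5% lower there.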

Additional observations from a re-analysis of the deposited data

Results flagged for a closer look

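Interactions of genotype with a condition, mutant minus wild type on the log2 scale, passed for the following members, and the effects therefore differed between the genotypes in the fit. For light against dark, AIM1 passed at 4 d (0.48) and at 5 d (0.55). For glucose against none in the dark, ACX4 (1.99), LACS6 (-0.55) and LACS7 (-1.03) passed. For glucose against none in light, ACX1 (-1.09), ACX4 (1.30), AIM1 (-0.63), LACS6 (-1.0) and LACS7 (-1.48) passed. For 4 d against 3 d in the dark, ACX4 passed (-1.19). Adjusted p and the libraries on which single calls rest stand with each result above.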

How the results depend on the processing

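No called member difference changed sign under any alternative run, while some that were not called did (PXA1 at 5 d light, -0.26, reached 0.20), and for mutant against wild type the calls of ACX4 (5 sugar-free conditions), LACS6 and LACS7 (4 each) held in all. Member calls for mutant against wild type with each library left out ran 1 to 2 at 3 d dark, 4 to 5 at 4 d dark, 6 to 7 at 4 d light, 5 to 6 at 5 d dark, 6 to 6 at 5 d light, 0 to 0 in the dark with glucose and 0 to 0 in light with glucose. In wild type they ran 1 to 4 and 3 to 4 for light at 4 d and 5 d, 2 to 4, 0 to 0 and 1 to 2 for 4 d dark, 5 d dark and 5 d light against the day before, and 4 to 4 and 6 to 7 for glucose in dark and light. In the mutant the same comparisons ran 0 to 0, 0 to 4, 0 to 0, 0 to 1, 0 to 1, 2 to 5 and 3 to 6. Interactions ran 0 to 1 and 1 to 3 for light at 4 d and 5 d, 2 to 4 and 5 to 5 for glucose in dark and light, 1 to 2 for 4 d against 3 d and 0 to 0 for 5 d against 4 d. Counts that moved by over 1.5 times follow, and the cause was not tested. The share of all genes called in each of these runs is not given, so a move may be shared by all genes. Library totals gave 4 members at 3 d dark, 7 for glucose in wild-type dark, 2 for the 4 d light interaction, 3 for the 5 d light interaction and 2 for the 4 d against 3 d interaction. The replicate block gave 2 at 3 d dark, 2 for wild-type 4 d against 3 d, 1 for wild-type 5 d against 4 d light and 0 for the 4 d light interaction. Numbers were read as pairs only at 3 d dark. Leaving out the pair of dark glucose libraries gave 1 for the genotypes there. Without a filter the counts were 3 for wild-type light at 4 d, 1 for wild-type 5 d against 4 d light, 0 for mutant 5 d against 4 d dark and 0 for the 4 d light interaction. Summed transcript models gave 1, 0 and 0 for the last 3 of these. Fits of only the libraries compared gave 2 for wild-type 4 d against 3 d, 4 for wild-type 5 d against 4 d light, 0 for mutant 5 d against 4 d dark and 0 for both light interactions. RLE factors gave 0 for mutant 5 d against 4 d dark, 0 for the 4 d light interaction and 2 for the 4 d against 3 d interaction. DESeq2 gave 1 for mutant light at 5 d, 2 for the 4 d light interaction and 2 for the 4 d against 3 d interaction. Other pathway genes called with a library left out ran 6 to 10, 16 to 17, 19 to 20, 13 to 18, 17 to 20, 0 to 0 and 3 to 5 over the 7 conditions in the order above, and biogenesis genes 0 to 7, 9 to 14, 8 to 11, 13 to 16, 15 to 17, 0 to 0 and 1 to 4. Without the dark glucose pair 2 other pathway genes were called there. Biogenesis calls under library totals were 3 at 3 d dark and 15 at 4 d light, and in light with glucose 3 with RLE factors and 3 without a filter. PEX11E turned with the first transcript model, to a called 0.68 at 4 d light (adjusted p = 0.000297) and to 0.0732 at 5 d light (adjusted p = 0.693). That model also lost its 5 d dark call (-0.0568, adjusted p = 0.760). Summed transcript models lost its 4 d light call (-0.28, adjusted p = 0.0918). Library totals and the set without raised KIN10 were added after seeing the data. That set leaves only mutant library 2 at 5 d light, so its values there have no spread within the mutant. The number of libraries, 3 a group, limits what can be called.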
